A study of Drosophila melanogaster with 3 samples.

Results

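The genes described here encode the proteins of the cytosolic ribosome of Drosophila melanogaster. They were chosen by symbol alone: protein-coding genes of the annotation whose symbol is RpL, RpS or RpLP followed by a digit, without those ending in -like. This gave 87 of 13945 protein-coding genes, 47 for the large subunit, 37 for the small subunit and 3 for the stalk of the large subunit. Binding of the POU-homeodomain factor pdm3 was mapped by chromatin immunoprecipitation with sequencing in whole white prepupae of mixed sex, from a single transgenic line with GFP fused to the C terminus of pdm3, with an antibody against GFP. All 3 biological replicates belong to this 1 group, the age of the animals is given as unknown, and no untagged or other animals were analysed here. Whole animals were used, so binding in few cells and weak binding in many cannot be told apart.

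The cytosolic ribosome joins ribosomal RNA to one copy of most of its proteins, and the genes for these proteins lie scattered over the fly genome. They are transcribed at high rates in growing cells, and loss of one copy of many of them gives the Minute phenotype of slow development and short bristles. Their start sites carry a polypyrimidine initiator, the TCT motif, in place of the usual initiator, and many of their promoters hold the element bound by DREF or Motif 1, the element bound by M1BP. In flies pdm3 is best known from olfactory and other neurons.

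The promoters of 8 of these genes show the elements and the genes with and without a pdm3-GFP summit side by side. Each sequence runs 5′ to 3′ on the strand of the gene, from 80 bases before a start site to 20 bases after it. Capitals mark a TCT word near the start, the DREF element TATCGATA, the Motif 1 core GGTCACAC or the POU octamer ATGCAAAT in either orientation. The first 4 carried a summit and a TCT word. The DREF element lies within the stretch shown in 3 of them, and outside it in RpL28.
RpL28, chr3L:3222940-3223040, minus strand: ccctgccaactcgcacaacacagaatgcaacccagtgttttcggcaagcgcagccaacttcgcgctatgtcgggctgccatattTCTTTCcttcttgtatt
RpS25, chr3R:11216267-11216367, minus strand: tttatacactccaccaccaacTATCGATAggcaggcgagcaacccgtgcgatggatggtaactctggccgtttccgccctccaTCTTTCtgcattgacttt
RpL27, chr3R:25685031-25685131, minus strand: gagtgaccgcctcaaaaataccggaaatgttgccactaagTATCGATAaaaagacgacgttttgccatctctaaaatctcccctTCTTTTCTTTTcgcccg
RpS6, chrX:7901311-7901411, minus strand: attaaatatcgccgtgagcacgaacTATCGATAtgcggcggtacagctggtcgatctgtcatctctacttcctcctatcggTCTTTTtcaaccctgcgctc
RpS12 carried a summit and the DREF element, without a TCT word in the stretch shown.
RpS12, chr3L:13023272-13023372, plus strand: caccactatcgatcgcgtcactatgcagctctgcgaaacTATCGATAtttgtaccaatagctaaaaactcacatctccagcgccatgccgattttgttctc
RpLP1 carried a summit, Motif 1, the POU octamer and a TCT word.
RpLP1, chr2L:419872-419972, plus strand: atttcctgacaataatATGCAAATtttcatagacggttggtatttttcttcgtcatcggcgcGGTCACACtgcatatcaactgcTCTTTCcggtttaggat
RpL6 and RpL13A had no candidate summit in any list, and hold a TCT word all the same. RpL6 also holds Motif 1, and the DREF element outside the stretch shown.
RpL6, chr3R:31596184-31596284, minus strand: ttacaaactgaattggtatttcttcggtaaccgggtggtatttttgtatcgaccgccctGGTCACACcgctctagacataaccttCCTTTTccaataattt
RpL13A, chr3R:5624394-5624494, plus strand: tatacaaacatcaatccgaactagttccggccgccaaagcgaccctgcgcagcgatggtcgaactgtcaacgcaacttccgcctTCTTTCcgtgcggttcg

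In the optimal list, the authors' list of reproducible peaks, 52 of the 87 genes (59.8%) had the summit of a peak 1 kb or less from one of their start sites, as did 21.3% of all protein-coding genes. Such a gene is called bound here. The optimal list holds 8164 peaks, and the candidate lists of the pooled libraries and of each replicate hold 30000 each. Among the 8164 highest peaks of each replicate, called its top here, 52, 56 and 58 of the genes had a summit in replicates 1, 2 and 3, a mean of 63.6% ± 3.51 (SD, n = 3). The same lists gave 23.4%, 22.7% and 25.2% of all genes. A summit in the top of every replicate was found at 46 ribosomal protein genes (52.9%) and at 17.4% of all genes. No test was made of these shares, because the genes were chosen with earlier results of these data known. Depth per library is not given in peak lists and is unknown.

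**Figure D1:**
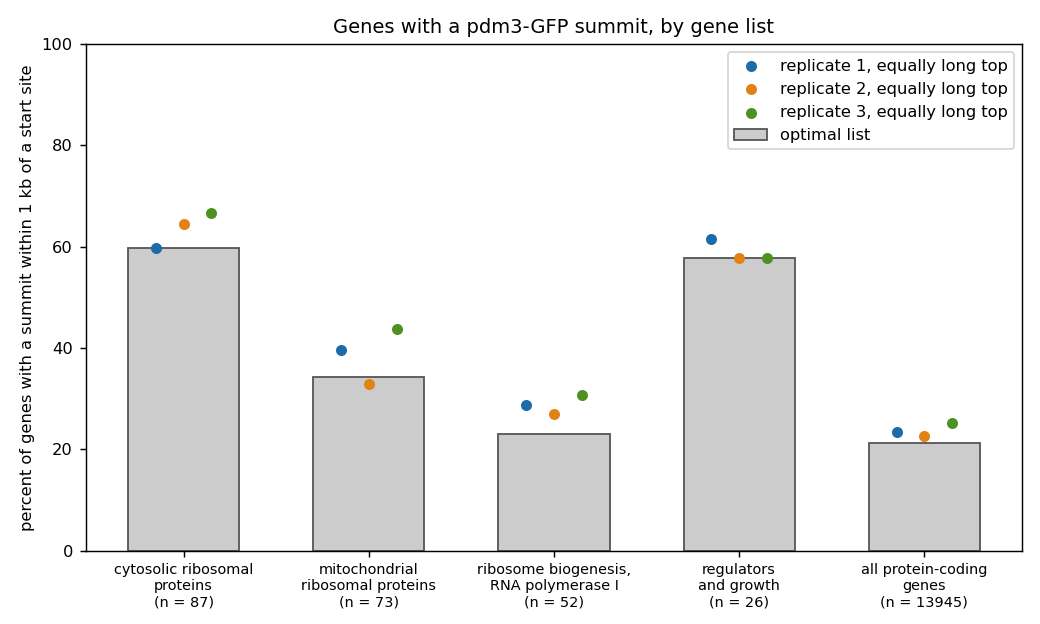
Percent of genes that had a summit at 1 kb or less from a start, for cytosolic ribosomal proteins and 4 other sets of genes (number of genes below each). Bars give the optimal list and points the 8164 highest peaks of each replicate. Cytosolic ribosomal protein genes stood at 59.8% to 66.7% in these 4 lists, and all protein-coding genes at 21.3% to 25.2%.

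Going down to all candidates added further genes. The pooled candidate list had a summit at 60 of the 87 (37.4% of all genes), and the whole lists of replicates 1, 2 and 3 at 66, 63 and 68 (41.2%, 41.3% and 44.2% of all genes). All 87 genes can be placed in 4 classes. Besides the 52 in the optimal list, 8 had a pooled candidate, 12 a candidate in a replicate's list but not in the pooled one, and 15 had none. These 15 are 17.2% of the group, while 44.3% of all genes had no candidate in any replicate's list.

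Among proteins of the large subunit 30 of 47 genes had an optimal summit, with 30, 33 and 33 in the tops of replicates 1, 2 and 3. Among those of the small subunit 20 of 37 had one, with 20, 20 and 23 in the tops. Of the stalk genes, whose products recruit elongation factors, RpLP0 and RpLP1 had one and RpLP2 had a pooled candidate at rank 8473. The median signal value of the summits was 257 for the large and 260 for the small subunit, so the subunits differed little in this value. The signal value of a peak was given by the authors and serves here to order the peaks of 1 list.

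Ranks in a replicate are those of the highest candidate of the gene in that list, which need not be the optimal peak itself: at 6 of the 52 genes, in 7 cases, its summit lay outside that peak. The highest summit of the large subunit was that of RpL34b at 3R 9401172 to 9401574, with a signal value of 684 and ranks of 471, 552 and 543 in the candidate lists of replicates 1, 2 and 3. RpL32, whose transcript is a common reference in fly expression work, had one at 3R 30046106 to 30046516, signal value 635, with ranks of 680, 384 and 759. RpL7 followed, signal value 588, at 2L 10200896 to 10201151, with ranks of 871, 595 and 687. These 3 genes thus stood among the first 1000 of 30000 in every replicate. RpL28 had one at 3L 3222892 to 3223168 (signal value 470), ranked 1545 and 1071 in replicates 2 and 3. In replicate 1 its highest candidate, ranked 3307, was another summit, 261 bp upstream of the start, and none lay inside the optimal peak. RpL24, at 2L 13395037 to 13395308 (signal value 418), ranked 1378, 1483 and 1132, and no other start site lay within 1 kb of its summit. RpLP0, signal value 412, had a peak spanning 3L 22075945 to 22076175 and ranks of 1774, 877 and 1402. RpL14, signal value 393, had a peak spanning 3L 8600832 to 8601077 and ranks of 1614, 1209 and 1285.

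In the small subunit RpS27 had a summit at 3R 25247371 to 25247766, signal value 675, with ranks of 555, 588 and 476. RpS20 had one at 3R 20821839 to 20822185 with a signal value of 555, and ranks of 581 and 995 in replicates 1 and 3. Replicate 2 had no candidate there among its 30000. The high summits at RpS19b and RpS28b lay far from their own start site and are described with the shared promoters. RpS6, the classic substrate of S6 kinase, was lower, at a signal value of 133 for a summit 5 bp before the start, and ranked 5359 in replicate 2. Its highest candidates in replicates 1 and 3, ranked 4120 and 3714, had summits outside that peak, 459 bp before and 37 bp after the start. RpS12, known in flies for its part in the competition between Minute and normal cells, had 219 and ranks of 2952, 5671 and 2479, the replicate 2 summit lying 25 bp after the start and outside the optimal peak.

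Over the 50 bound genes with a candidate in every replicate, the median rank was 3074.5 in replicate 1, 2338 in replicate 2 and 2173.5 in replicate 3. Spearman's rho of these ranks was 0.79 for replicates 1 and 2, 0.88 for replicates 1 and 3 and 0.84 for replicates 2 and 3. This is a description over genes whose peaks all come from the same 3 libraries. Peak height was close to that of other bound genes: the median signal value of the 52 summits was 261, and that of the highest summits of all 2965 bound genes was 252. At least 50% of the peak was covered in all 3 replicate lists for 48 of the 52 (92.3%) and for 86.3% of bound genes. RpL35A, RpS20, RpS27 and RpS6 were the 4 that were not covered in all 3. With an overlap of at least 80%, 34 of the 52 were covered in all 3 lists.

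**Figure D2:**
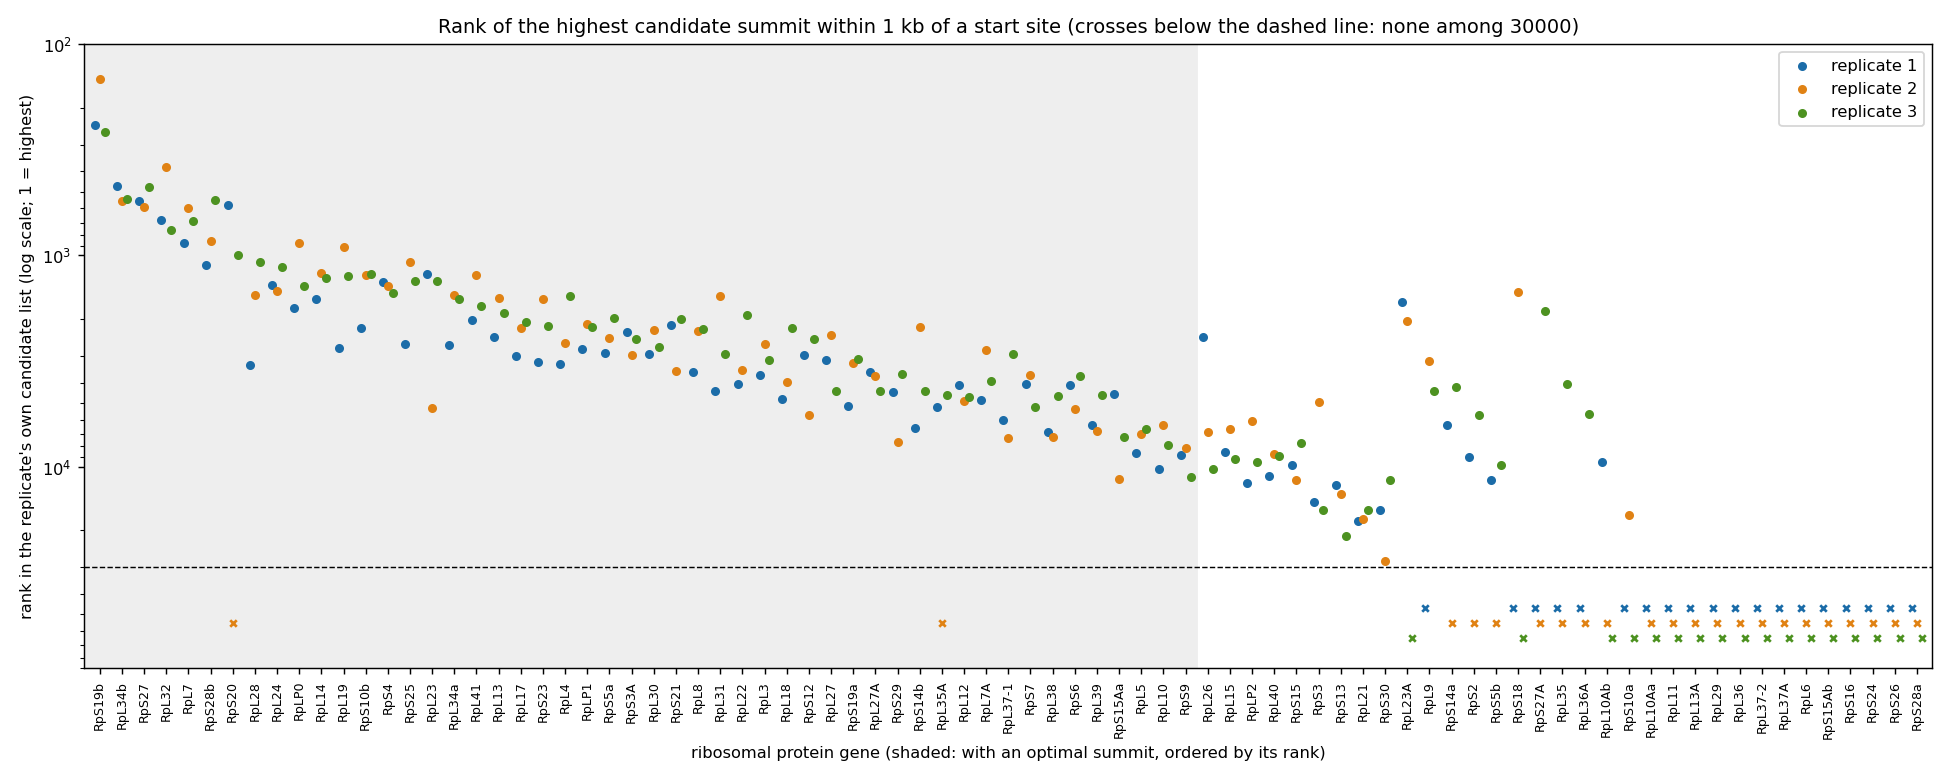
Rank of the highest candidate summit within 1 kb of a start site, for 83 of the 87 ribosomal protein genes in each replicate's list of 30000 (log axis, 1 is the highest; crosses below the dashed line mark no candidate). Ranks of the 3 replicates lie close together for most of the 50 shaded genes with an optimal summit, while RpL23A, RpL9, RpS18 and RpS27A are high in 1 or 2 replicates and absent from the others.

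Where the summits lay relative to the start was more distinct than how high they were. The highest optimal summit lay a median of 38.5 bp from the nearest start site of its own gene, with quartiles of 14.8 and 86.5 bp, and for all bound genes the median was 225 bp with quartiles of 124 and 473 bp. Within 100 bp of a start site were 40 of 52 (76.9%), and 18.6% of all bound genes. Each replicate's own top gave the same order: medians of 60, 40 and 47.5 bp for ribosomal protein genes in replicates 1, 2 and 3, and of 217, 207 and 203 bp for all genes. The difference between these groups was larger than the spread between replicates in each list, and was not tested.

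Most summits lay just upstream. On the strand of the gene, 43 of 52 lay before the nearest start site (82.7%; 80.1% for all bound genes). In the gene models 40 were upstream of every start site, 11 in a non-coding part of an exon and 1, at RpS9, in an intron. None lay in coding sequence. RpL3 had its summit 1 bp before the start, RpS15Aa 4 bp before, RpS27 4 bp after and RpS6 5 bp before. Genes with a single start site had a median of 69.5 bp (24 genes; 214 bp for all bound genes with 1), and those with 2 or more 25.5 bp (28 genes; 243 bp).

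**Figure D3:**
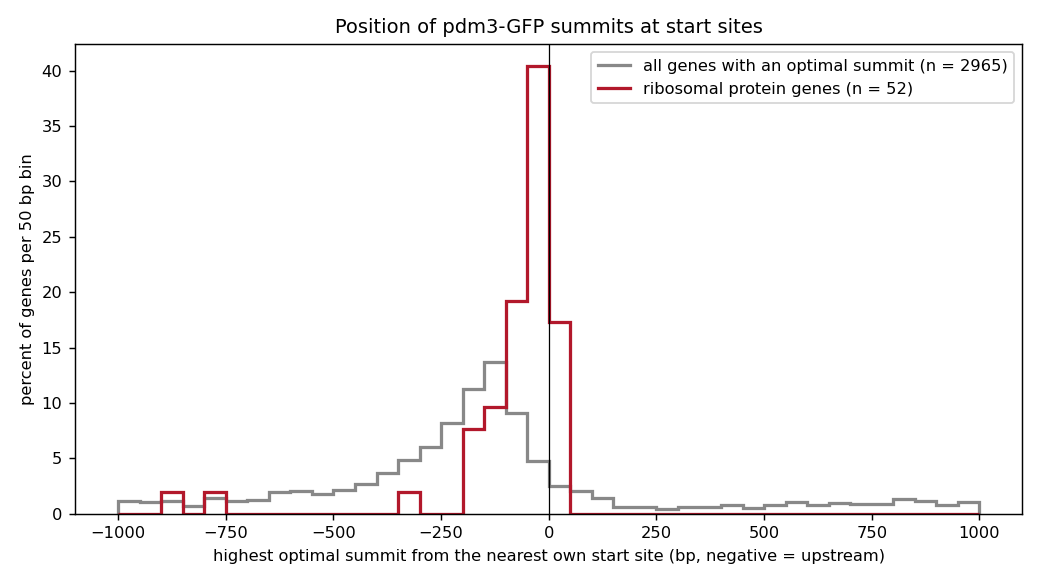
Position of the highest optimal summit relative to the nearest start site of its own gene, in bins of 50 bp (negative is upstream), as percent of the 52 ribosomal protein genes and of all 2965 genes with an optimal summit. The ribosomal protein genes pile up in the bins next to the start, with a median distance of 38.5 bp, and all bound genes peak farther upstream, with a median distance of 225 bp.

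The distance of 1 kb divides the genes at few places. Just inside it lay the summits of RpS19b at 885 bp and RpS28b at 784 bp. Just outside, the nearest optimal summits were at 1126 bp from RpS14a, 1283 bp from RpL13A and 1333 bp from RpS13. The first of these is the summit of RpS14b, 30 bp before the start of that gene. All other genes with a summit had it within 344 bp, the value of RpL23.

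Shared promoters were common. Another protein-coding start site lies within 1 kb of 54 of the 87 genes, and for 52 of them at least 1 such neighbour is on the other strand. Of the 54 genes 36 had an optimal summit (66.7%; 27.7% of all genes with such a neighbour), and of the 33 without a neighbour 16 had one (48.5%; 16.4%). The share was thus higher than that of all genes both with a neighbouring start and without one. Of the 52 highest summits, 35 (67.3%) had a start of another gene at 1 kb or less, and 49.4% of those of all bound genes did. With both distances cut to 500 bp, 23 of 50 were shared, and 45.1% for all bound genes, so these shares lay close together.

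For 8 genes the summit was nearer to the neighbour's start. At RpS19b, which codes for a copy known from the germline, the peak spanned 3R 23934270 to 23934599, with a signal value of 998 and ranks of 241, 147 and 260, the highest of the group. Its summit lay 885 bp from the start of RpS19b and 503 bp from that of CG5854. The peak at RpS28b, X 9553688 to 9554139, had a signal value of 562 and ranks of 1111, 858 and 550, with a summit 784 bp from RpS28b and 89 bp from l(1)G0320. Both summits were thus nearer to the neighbour. RpL13 shares a promoter with Dref, the gene of the DREF factor itself: their peak, signal value 310, spans 2L 9967107 to 9967301 with ranks of 2430, 1592 and 1875. Its summit lay 80 bp from the start of RpL13 and 4 bp from that of Dref. The others included RpL18 (neighbour Neos), RpL23 (CG13531), RpL34a (Trmt61, for a tRNA methyltransferase) and RpL41 (NaCP60E, for a sodium channel). Which of 2 neighbours a summit belongs to cannot be told from its place.

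In other shared promoters the ribosomal protein gene was the nearer. RpL28 stood 58 bp from its summit and eIF1, for a translation initiation factor, 323 bp. RpL14 stood at 35 bp and Nelf-E, for a subunit of the negative elongation factor, at 92 bp. RpS27 stood at 4 bp and Nup37, for a nuclear pore protein, at 148 bp. RpS6 stood at 5 bp and bys, for a ribosome assembly factor, at 544 bp.

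At 17 genes the summit had no start site of another protein-coding gene within 1 kb: RpL10, RpL12, RpL17, RpL22, RpL24, RpL27, RpL27A, RpL30, RpL37-1, RpL38, RpS3A, RpS4, RpS9, RpS10b, RpS14b, RpS23 and RpS29. These summits lay a median of 30 bp from the start, and 15 of the 17 within 100 bp (14.6% of all bound genes without a shared summit). The 35 shared summits lay at a median of 50 bp, with 25 within 100 bp (22.7% for all shared). Proximity to the start was seen in both sets.

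Genes with an optimal summit were found on every arm. They numbered 11 of 14 on X, 10 of 14 on 3L, 13 of 22 on 3R, 8 of 17 on 2L and 9 of 19 on 2R. The 1 gene on chromosome 4, RpS3A, had a summit with a signal value of 262 and ranks of 2299, 2963 and 2481. Across all genes the share was 26.2% on X, 21.3% on 3L and 21.2% on 3R. It was 20.2% on 2L, 18.2% on 2R and 30% on chromosome 4. Introns of many ribosomal protein genes host small nucleolar RNAs, which guide modification of ribosomal RNA. A summit was found at 19 of the 28 host genes (67.9%; 45.2% of all 84 hosts) and 33 of the 59 others (55.9%; 21.1% of all genes that host none). The 84 hosts include these 28, and the 38 hosts with a summit include these 19.

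Sets of duplicated genes allow copies of the same protein to be compared, and in 6 of 9 pairs only 1 copy had an optimal summit. Because 59.8% of the 87 genes had one, such a split is not by itself a result about duplicated genes. RpS5a had one with a signal value of 277 and ranks of 2895, 2455 and 1981. Its copy RpS5b, known from the germline, had only candidates, ranked 11612 in replicate 1 and 9853 in replicate 3, and none in replicate 2. RpS10b had a summit with a signal value of 384 and ranks of 2208, 1234 and 1226, whereas RpS10a had a single candidate, ranked 16991 in replicate 2. In each replicate the copies without a summit in these 2 pairs ranked lower than their partners or had no candidate. RpS15Aa had one with a signal value of 121, ranked 4511 and 7203 in replicates 1 and 3. In replicate 2 its highest candidate, ranked 11385, lay 311 bp after the start, and the one inside the optimal peak ranked 18237. RpL37-1 had a summit with a signal value of 172 and ranks of 6044, 7291 and 2934. Their copies RpS15Ab and RpL37-2 had no candidate in any list, and neither had RpS28a, the copy of RpS28b. The highest summit of RpS28b lay nearer to the start of l(1)G0320, as given above. RpS14a and RpS14b are near-identical neighbours with start sites 1156 bp apart, so reads from one could have been placed at the other. RpS14b had a summit with a signal value of 186 and ranks of 6596, 2186 and 4396, and RpS14a had candidates ranked 6378 in replicate 1 and 4181 in replicate 3 and none in replicate 2.

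Both copies had a summit in 2 pairs. RpL34a had a signal value of 333 and ranks of 2648, 1534 and 1601, below those of RpL34b in each replicate; its replicate 1 summit lay just outside the optimal peak. RpS19a had 198 and ranks of 5186, 3234 and 3089, with its summit 15 bp from its own start, unlike that of RpS19b. In the last pair neither did: RpL10Aa had no candidate and RpL10Ab had 1, ranked 9543 in replicate 1.

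Among genes outside the optimal list, some had high peaks in part of the replicates. RpL23A, whose product lies at the exit of the nascent chain, ranked 1663 in replicate 1 and 2046 in replicate 2, with summits 81 and 77 bp upstream, but had no candidate in replicate 3 or in the pooled list. RpS18 ranked 1487 in replicate 2 alone, and RpS27A, which encodes a fusion with ubiquitin, 1843 in replicate 3 alone. RpL9 ranked 3169 in replicate 2 and 4393 in replicate 3. In all, 65 genes were in the top of at least 1 replicate, and 10 of these were missing from the whole list of at least 1 other (15.4%; 21.1% among all genes). For 8 of the 65 the pooled list had no candidate (12.3%; 18.8% among all genes). Such gaps were thus no more frequent here than among all genes, and their origin was not tested.

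For the 8 genes with a pooled candidate but no optimal summit, pooled ranks began just below the end of the optimal list. RpL15 had pooled rank 8228 and ranks of 8483, 6656 and 9162, and RpS15 had 8595 and 9854, 11523 and 7746. RpL40, whose product is fused to ubiquitin, had 10736, RpS3 had 13052, and RpL26, RpS5b and RpS13 had 9654, 9615 and 12374. Like RpLP2, they had candidates in all 3 replicates, except RpS5b.

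For 15 genes no list had a candidate within 1 kb of a start site, among them RpL6, RpL10Aa, RpL11, RpL13A, RpL29, RpL36, RpL37A, RpL37-2, RpS15Ab, RpS16, RpS24, RpS26 and RpS28a. The nearest optimal summit to RpL6 was 7661 bp away, and that nearest to RpL29 was 42433 bp away. For RpL11, which binds Mdm2 in mammals, the distance was 9331 bp. Having no candidate was less frequent here (17.2%) than among all genes, of which 44.3% had none in the replicate lists. The absence holds for these lists of limited length and does not show that pdm3 was absent.

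The words known from ribosomal protein promoters were then sought in genes with and without a summit. The TCT word, written TCTTTC with C also allowed as the first letter and T as the last, was sought on the sense strand with its second base within 10 bp of a start site. It occurred in 74 of the 87 genes (85.1%) and in 4.09% of all genes. It occurred in 46 of the 52 genes with an optimal summit (88.5%) and in 28 of the 35 without (80%). Of 496 other genes with such a word, 148 had a summit (29.8%; 21.3% of all genes), at a median of 242 bp from the start. Those summits thus lay about as far from the start as the summits of all bound genes.

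Both other elements were more frequent in these promoters than in all, but were found with and without a summit. In the 250 bases before and 50 after the outermost start site, on both strands, TATCGATA occurred in 26 of the 87 genes (29.9%; 9.36% of all genes), 15 of 52 with a summit and 11 of 35 without. GGTCACAC occurred in 13 (14.9%; 7.7% of all), 9 of 52 with a summit and 4 of 35 without. The POU octamer ATGCAAAT was in 4 of the 87 (4.6%; 3.47% of all), and its first part ATGCAA, which is counted wherever the octamer occurs, in 18 (20.7%; 21.5%). ATGCAA was in 14 of 52 promoters with a summit (26.9%) and 4 of 35 without (11.4%), a difference that was not tested. Over the whole annotation it was in 21.6% of bound genes and 21.5% of all genes. CACGTG, bound by Myc, was in 6 (6.9%; 4.2%), GAGAGA in 4 (4.6%; 12.3%) and TATAAA in 43 (49.4%; 45.8%). A match is a description of the letters and not a bound site.

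Within 50 bp of the summit itself the DREF element occurred at 11 of 52 ribosomal protein genes, among them RpL27, RpL28, RpL39, RpL41, RpS6, RpS10b, RpS12, RpS15Aa, RpS25 and RpS29. Of the other 2950 optimal summits near start sites 1.36% held it. Because these summits lie nearer to the start, summits within 100 bp of any start were also compared: 10 of 43 of those at ribosomal protein genes held the element (23.3%), and 30 of 612 others (4.9%). Motif 1 was at 6 of the same 43 (14%), among them RpL7, RpL27A, RpL30, RpLP0 and RpS23, and at 12 of the 612 others (1.96%). The octamer was at 2 of the 43, among them RpLP1, and at 6 of the 612. GAGAGA was at 0 of the 43 and at 3.1% of the others. None of these differences was tested.

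**Figure D4:**
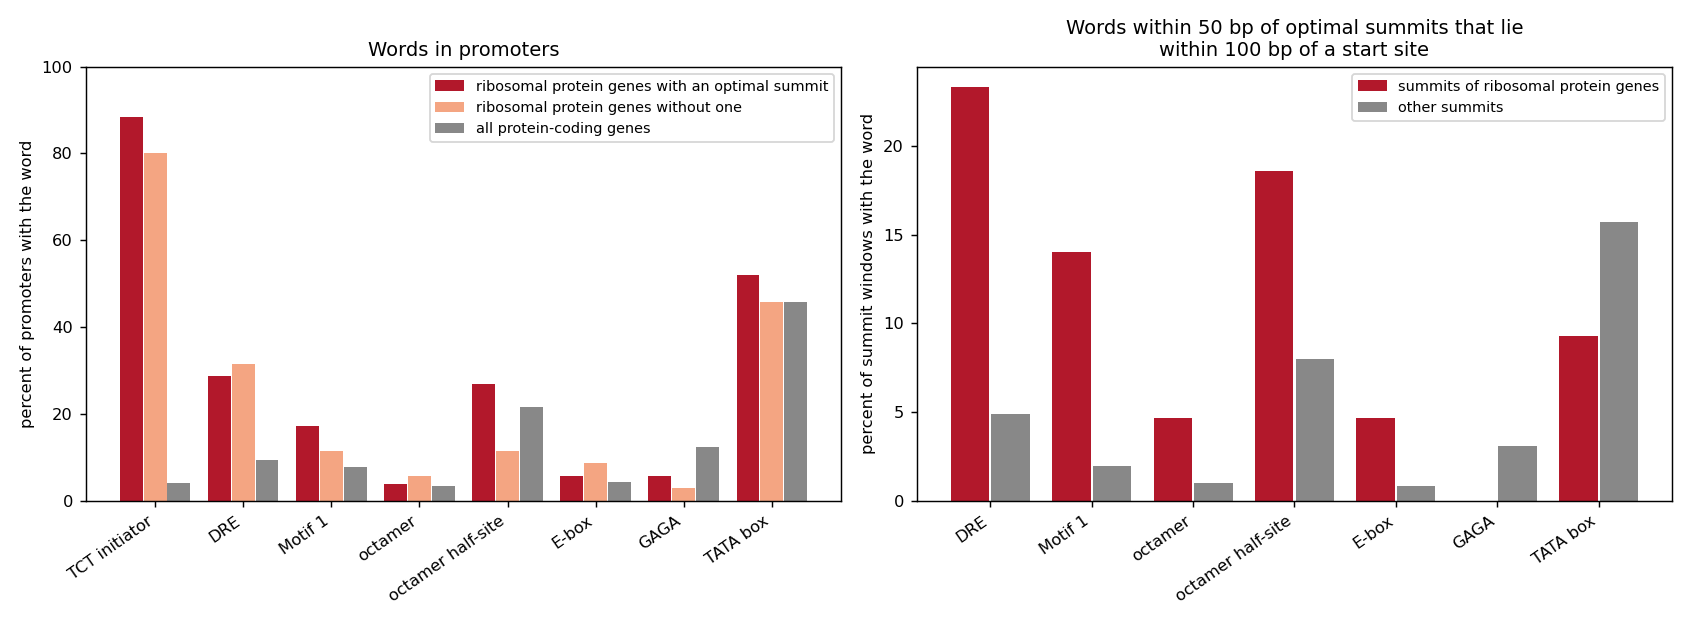
Left, percent of promoters that hold each word, for ribosomal protein genes with (52) and without (35) an optimal summit and for all protein-coding genes. Right, percent of windows of 101 bp around optimal summits within 100 bp of a start site that hold each word, for 43 summits of ribosomal protein genes and 612 others; the DREF element (DRE) stood at 23.3% and 4.9%.

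Other genes of ribosome production were counted in the same way. Mitochondrial ribosomal protein genes had an optimal summit at 25 of 73 (34.2%), at a median of 171 bp from the start, and all 25 of these summits were shared with a neighbouring gene at 1 kb or less. Within 100 bp of the start were 4 of the 25, against 40 of 52 for the cytosolic ribosome. The highest, mRpS23, mRpL41 and mRpS10, had signal values of 2814, 2573 and 2337, above every value of the cytosolic group. Ribosome biogenesis factors and subunits of RNA polymerase I had 12 of 52 (23.1%), led by eIF6, Ns2 and Rrp40 with 1742, 1065 and 829, a share near the 21.3% of all genes. Among regulators of ribosomal protein genes and growth, 15 of the 26 matched in the annotation had an optimal summit (57.7%). Chro, larp and REPTOR led, with signal values of 2942, 2940 and 1284. Dref and Nelf-E were among these 15, through the summits they share with RpL13 and RpL14, and M1BP and Myc were not. M1BP had candidates ranked 2232 in replicate 1 and 2042 in replicate 3, and none in replicate 2. Myc had candidates ranked 12482, 11286 and 15058 in replicates 1, 2 and 3. In a small set of related genes 3 of the 8 matched had a summit, at Nacalpha (signal value 300), bic (298) and sta (134). The last codes for a protein of the small subunit outside the naming rule. The listed symbol RACK1 was not matched, and the annotated gene Rack1 had an optimal summit 32 bp before a start.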

How the data were processed

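Peak lists on dm6 from chromatin immunoprecipitation with sequencing were used: 1 candidate list for each of 3 biological replicates, 1 for the pooled replicates, and the optimal list. Per the labels' readme, alignments and 1 control file gave the candidates, and filtering these on the irreproducible discovery rate gave the optimal peaks. Chromatin was sheared to 200 to 800 bp, per the labels. Not given in the sources used here are aligner, peak caller and thresholds. The signal value of each peak is as the authors deposited it, with no stated normalization, and served to rank peaks within a list. No row was shared between replicate lists. All peaks fit within the arms of the RefSeq sequence of the same assembly, from which promoter and summit bases were read.

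Start sites (19607 on 6 arms) came from Ensembl release 115. A bound gene has a summit at most 1 kb from any of them. Positions are counted from 1. A replicate covered a peak when its peaks overlapped at least 50% of the length. Any of the 87 genes could be named, with full values for the 12 highest and for both copies of duplicated genes; those without candidates are named. Results of 4 single genes are not reported here, though counts include these genes. Of 95 symbols in the other lists 9 were not matched and were dropped. Most of these belonged to the list of regulators, and some name annotated genes under another spelling. Members and lists were chosen with earlier results of these data known. Gene assignment and overlap were tested on simulated data. Alternatives covered distance, start sites, assignment, list depth, overlap, word window and each replicate left out. Tools were matplotlib 3.10.9, scipy 1.17.1, pandas 2.3.3, numpy 2.4.6 and Python 3.11.15.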

Additional observations from a re-analysis of the deposited data

How the results depend on the processing

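Of 38 alternative values 35 stayed within 1.5 times the main count or within 1 SD of the replicates. The bound for counts is wide. At 80% overlap 34 peaks in place of 48 were covered in all 3 lists, which lies inside it. With a word window of 5 bp, 54 genes in place of 74 held a TCT word (2.13% of all genes), which does too. Counting only summits with no start of another gene within 1 kb left 17 of the 87 genes in place of 52 (11.2% of all genes). Within 500 bp, 50 genes had a summit, and 23 of these 50 summits were shared with another gene, in place of 35 of 52. For all bound genes the shared part was 45.1% in place of 49.4%. The median share of start-site peaks with a higher signal value was 38.1% in the main set and ran from 42.3% to 45.4% with each replicate left out, the last without replicate 1. With each replicate left out, 42 to 49 genes had a summit, 27 to 34 summits were shared, and the median distance ran from 38.5 to 48 bp. Leaving a replicate out means keeping optimal peaks that the other tops both cover, while the optimal list itself still rests on all 3 libraries. With each summit given only to the nearest start site, 45 genes had one (16.5% of all genes). No paired analysis was possible because all samples form 1 group. Depth is unknown, so no limit from it could be given.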
